A study of Mus musculus with 6 samples.

Results

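The genes described here are 9 complement components and receptors of the mouse: the C1q chain genes C1qa, C1qb and C1qc, the protease gene C1ra, the central component C3, the alternative pathway factors Cfb and Cfp, and the anaphylatoxin receptors C3ar1 and C5ar1. They were found by gene name, and each matched 1 of the 51912 gene records of the deposited tables. The members were chosen by gene name from a list drawn up with the hHVS-to-PCL differences in these counts and FPKM values known, so those differences are given as a description and their p-values are not independent tests. The cells were bone marrow mononuclear cells (BMMNC), a mix of immune, progenitor and stromal cells, of mice whose genotype is labelled WIDETYPE. They were grown for 10 days on PCL, the usual abbreviation of polycaprolactone, a synthetic polyester (n = 3), or on hHVS, a material whose name the labels do not spell out (n = 3). No treatment other than the material is labelled, and the labels give neither the age or sex of the mice nor whether replicates are separate cultures or animals. The p-values therefore measure only the spread between these libraries, which may be technical.

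Complement is a cascade of plasma proteins that marks surfaces and immune complexes for uptake. C1q, built of A, B and C chains, binds antibody complexes and dying cells, and the proteases C1r and C1s attached to it start the classical pathway. C3 is cleaved in every pathway. Its larger fragment tags surfaces and its smaller fragment, C3a, signals through the C3a receptor. Factor B and properdin, the product of Cfp, build and hold the alternative pathway convertase. Macrophages and dendritic cells are the main source of C1q, unlike most components, which come largely from the liver.

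Library totals ranged from 72.1 to 83.6 M units of the deposited counts, or about 18.0 to 20.9 M fragments if taken at about 4 units per fragment. A limit of 3 fragments (12 units) in a library corresponds to 0.144 to 0.166 CPM, the count per 1e+06 units of the library. This limit covers counting error only. The macrophage marker Cd68 averaged 2224 ± 43.0 CPM in the hHVS group against 2131 ± 86.2 CPM in the PCL group (SD, n = 3). PCL replicate 3 and hHVS replicate 2 stood apart from the other 4 libraries on the second principal component (23.3% of the variance), with scores of -53.6 and -32.1 against 10.4 to 31.8. All values for RNA from a mixed culture carry the limit that fewer cells of a type and less RNA per cell cannot be told apart.

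The 9 genes spanned more than 3 orders of magnitude in level per length. The plot of FPKM (fragments per kilobase of transcript and 1e+06 fragments) by gene shows a high tier of the C1q chains, both receptors and Cfp, and a low tier of C3, C1ra and Cfb. By mean FPKM over the 6 libraries C1qb was at 1058 ± 81.8 (SD) and ranked 32 of the 16364 genes tested. C1qc followed at 544 ± 38.6 FPKM (rank 58), C3ar1 at 379.8 ± 15.2 (rank 81), C1qa at 353 ± 34.3 (rank 83), C5ar1 at 198 (rank 157) and Cfp at 83.9 ± 16.6 (rank 476). Far lower came C3 at 2.60 ± 1.23 FPKM (rank 8828), C1ra at 1.85 ± 0.642 (rank 9738) and Cfb at 0.332 ± 0.0665 (rank 13069), against a median of 3.26 FPKM over the genes tested. Thus transcripts for the recognition subunit and for the receptors were among the most abundant in the cells, and those for the protease partner and for C3 were near or under the median gene. C1ra and Cfb share sequence with other genes, and their levels may be too low if shared reads were left out.

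**Figure D1:**
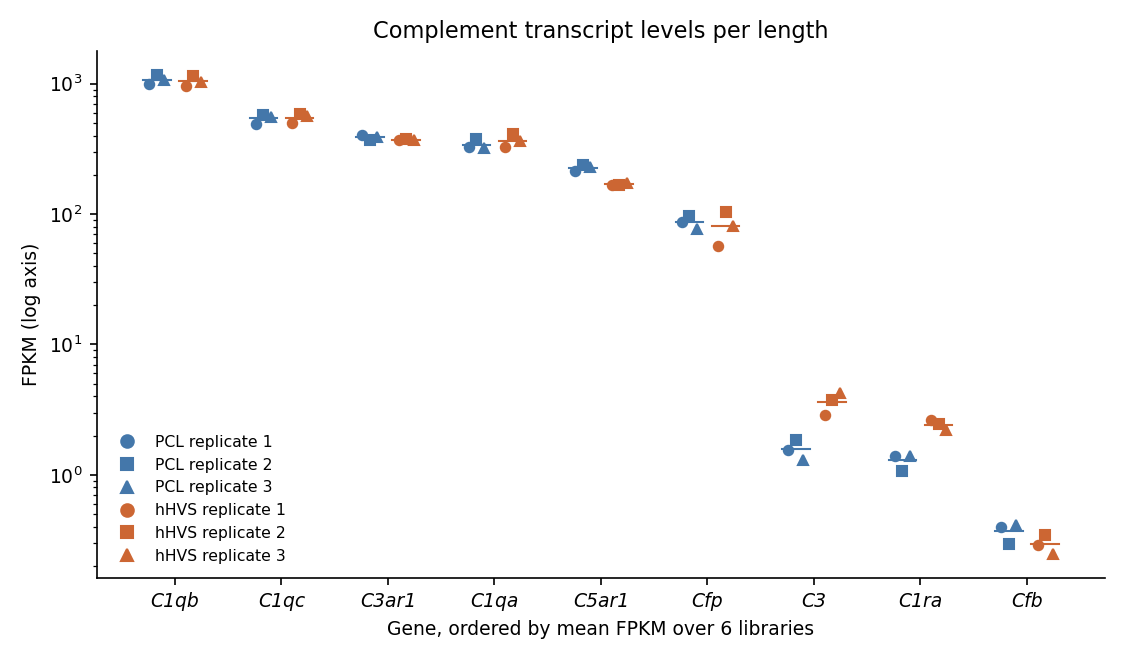
FPKM of each complement gene on a log axis, with 1 symbol per library (blue, PCL; orange, hHVS) and a line at each group mean; genes are ordered by mean FPKM over the 6 libraries. C1qb, C1qc, C3ar1, C1qa, C5ar1 and Cfp lie between 56.8 and 1171 FPKM, and C3, C1ra and Cfb lie between 0.248 and 4.27 FPKM.

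Of the 8 pairs of neighbours in this order, 6 kept the same order in all 6 libraries. Each of these had an exact two-sided sign-flip permutation p = 0.0312, the smallest that 6 libraries allow, and an adjusted p = 0.0417 over the 8 pairs, with mean differences from 0.52 (C1qc over C3ar1) to 5.06 (Cfp over C3) on the log2(FPKM + 0.1) scale. The order tested was read from the same libraries. C3ar1 and C1qa did not differ beyond their spread: C3ar1 was higher in 4 of 6 libraries, by 0.11 ± 0.17 log2 units (SD; exact permutation p = 0.188, adjusted p = 0.188). C3 was higher than C1ra in 5 of 6 libraries, by 0.41 ± 0.41 log2 units (SD; exact permutation p = 0.0625, adjusted p = 0.0714).

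The 3 C1q chain genes stood at similar levels on both materials. They lie side by side on the minus strand of mouse chromosome 4 (GRCm38, GENCODE M21), C1qb at chr4:136880129-136886187, C1qc at chr4:136889804-136893065 and C1qa at chr4:136895917-136898803, with gaps of 3616 and 2851 bases. C1qb, which encodes the B chain, was at 1150, 1404 and 1221 CPM in PCL replicates 1, 2 and 3 and at 1205, 1383 and 1267 CPM in hHVS replicates 1, 2 and 3 (TMM-adjusted CPM, as for all CPM below). C1qc, the C chain gene, was at 1018, 1223 and 1136 CPM on PCL and at 1106, 1255 and 1227 CPM on hHVS. C1qa, the A chain gene, was at 361, 430.1 and 355 CPM on PCL and at 393, 474 and 426 CPM on hHVS. The groups overlapped in all 3 genes. The log2 fold changes (hHVS minus PCL, ± SE) were 0.030 ± 0.095 for C1qb (adjusted p = 0.923), 0.088 ± 0.090 for C1qc (adjusted p = 0.726) and 0.17 ± 0.10 for C1qa (adjusted p = 0.532, edgeR's quasi-likelihood test for all). The sign of C1qb turned negative when library totals replaced TMM factors (-0.048).

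Replicate 2 was the highest library for all 3 chains on PCL and again on hHVS, and replicate 1 was the lowest for all 3 on hHVS. Replicate numbers are not taken as pairs across the materials. On PCL the lowest library was replicate 1 for C1qb and C1qc and replicate 3 for C1qa. Among 8397 genes with a mean of at least 10 CPM, C1qc ranked 10 by distance from C1qb (root mean square distance 0.050 between log2 CPM profiles centred on the mean of the 6 libraries). C1qb ranked 14 from C1qc at the same distance. From C1qa, C1qb ranked 37 and C1qc 40 (both 0.081), while C3ar1 ranked 2173 and C3 8213 (0.58). In the other direction C1qa ranked only 164 from C1qb and 197 from C1qc. The profiles nearest to C1qb included those of Aifm1, Dbt, Mvd and Vac14 (0.031 to 0.043). Nearest to C1qc were Pgam1-ps2, Asna1, Mto1, Atp6v0c and B2m (0.029 to 0.039), and nearest to C1qa were Arrdc4, Pgam1-ps2, Cep128, Rsrp1 and Cdc25b (0.040 to 0.057). All profiles share the same 6 libraries, so these distances are a description.

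The chain transcripts were not at equal levels. In the plot of chain ratios, C1qb exceeded C1qa in FPKM 3.04, 3.12 and 3.29-fold in PCL replicates 1, 2 and 3, and 2.93, 2.79 and 2.85-fold in hHVS replicates 1, 2 and 3. The PCL ratios all lay above the hHVS ratios. C1qc exceeded C1qa 1.52, 1.53 and 1.72-fold on PCL and 1.52, 1.43 and 1.55-fold on hHVS, with overlapping groups. The C1qc value depends on the length it is divided by. The annotation gives C1qc 2 transcripts whose merged exons span 1931 bases, but its coding transcript has 1203 bases, while C1qa (1040 bases) and C1qb (1088 bases) have 1 transcript each. Rescaled to the coding transcript, C1qc exceeded C1qa 2.48 ± 0.157-fold (SD over 6 libraries) in place of 1.54 ± 0.0976-fold, and C1qb stayed at 3.00 ± 0.185-fold. In both scalings C1qb was the highest chain and C1qa the lowest in every library.

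**Figure D2:**
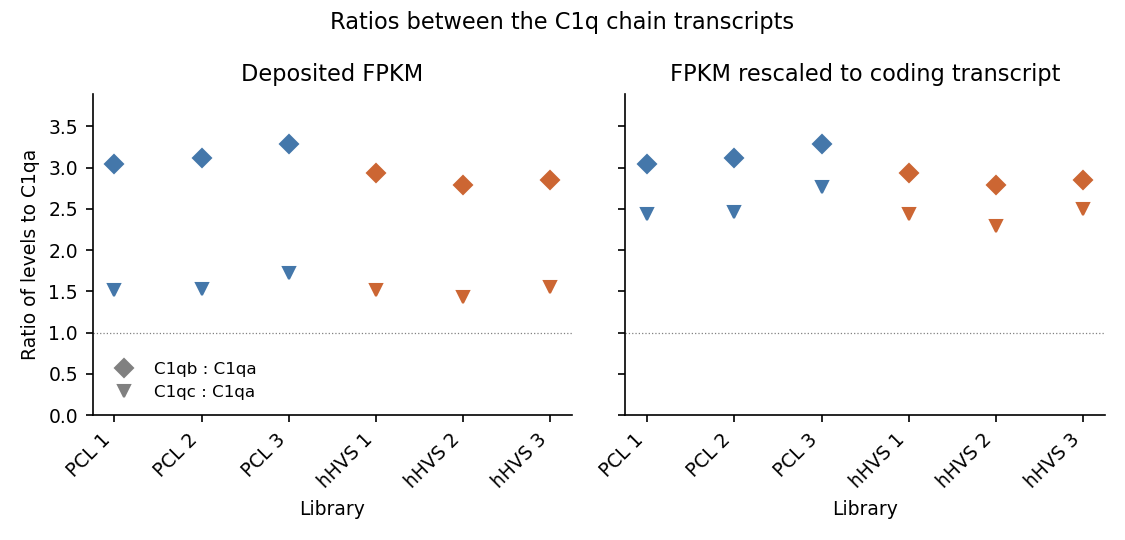
Ratio of C1qb (diamonds) and C1qc (triangles) to C1qa in each library, from deposited FPKM (left) and from FPKM rescaled to the longest coding transcript (right); blue, PCL; orange, hHVS; the dotted line marks a ratio of 1. C1qb to C1qa ranges from 2.79 to 3.29 in both panels, and C1qc to C1qa from 1.43 to 1.72 on the left and 2.29 to 2.77 on the right.

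Promoter windows of the neighbouring chain genes C1qb and C1qc are shown because these genes have near-parallel profiles. They run from 250 bases before to 50 bases after the RefSeq start (RefSeq, GRCm38.p6; 7 of the 9 genes had a window in the table, without C1qa and Cfb). Capitals mark matches, on either strand, to any of 7 short motifs: TTGCNNAA (C/EBP-like), GGAAGT (ETS), TGCTGA (Maf-like), GGGA and CC with 4 bases of any kind between (NF-kB-like), TTCNNNGAA (STAT-like), GAAA repeated after 2 bases of any kind (IRF-like) and TATAAA. The windows lie at chr4:136886151-136886450 (C1qb) and chr4:136892865-136893164 (C1qc), both on the minus strand. The RefSeq start of C1qc lies within the gene as annotated in GENCODE M21, so most of its window is inside that gene.
C1qb: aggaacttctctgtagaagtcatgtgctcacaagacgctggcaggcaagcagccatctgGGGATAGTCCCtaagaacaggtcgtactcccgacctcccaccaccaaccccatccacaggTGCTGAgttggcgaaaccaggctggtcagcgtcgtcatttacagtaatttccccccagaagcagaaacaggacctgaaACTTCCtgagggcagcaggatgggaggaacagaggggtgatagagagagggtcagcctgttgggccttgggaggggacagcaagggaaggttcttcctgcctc
C1qc: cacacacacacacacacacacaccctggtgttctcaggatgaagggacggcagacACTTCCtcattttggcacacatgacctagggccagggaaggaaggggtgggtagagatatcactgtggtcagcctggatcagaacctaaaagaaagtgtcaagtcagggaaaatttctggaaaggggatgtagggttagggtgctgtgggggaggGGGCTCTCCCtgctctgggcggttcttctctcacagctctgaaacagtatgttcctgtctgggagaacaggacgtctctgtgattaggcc
Both hold the ETS motif, C1qb at -53 to -48 and C1qc at -195 to -190 from the RefSeq start. This motif occurs in 23.8% of the 32851 promoter windows in the table, and among the 7 windows of the complement genes in 3. Both also hold the NF-kB-like motif (20.7% of all windows), with overlapping matches on both strands in C1qb. C1qb also holds the Maf-like motif (19.5% of all windows). A match is a run of letters and does not show that a factor binds.

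C1ra, the gene of the C1r protease of the C1 complex, was higher on hHVS. It was at 4.47, 3.53 and 4.44 CPM in PCL replicates 1, 2 and 3 and at 8.96, 8.12 and 7.40 CPM in hHVS replicates 1, 2 and 3. All hHVS libraries lay above all PCL libraries. The log2 fold change was 0.98 ± 0.16 (SE; 1.97-fold, adjusted p = 0.0475, edgeR), close to the threshold of 0.05. With any of the 6 libraries left out the log2 fold change stayed between 0.87 and 1.04, but the adjusted p (edgeR) rose to between 0.0664 and 0.168, and it was 0.065 with library totals. C1ra (chr6:124512405-124523443, plus strand) shares 50.8% of its 50-base words with other genes, chiefly its paralog C1rb. How reads that match both copies were counted is not given. In case they were divided, the sum of C1ra and C1rb was also taken. It was 4.41 ± 0.400 CPM on PCL and 8.99 ± 0.549 CPM on hHVS (SD, n = 3), again without overlap. Reads left out of both copies would not be in this sum.

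C3 had the largest difference of the 9 genes. It was at 8.54, 10.5 and 7.06 CPM in PCL replicates 1, 2 and 3 and at 17.1, 21.6 and 24.9 CPM in hHVS replicates 1, 2 and 3. The lowest hHVS library exceeded the highest PCL library. The log2 fold change was 1.28 ± 0.19 (SE; adjusted p = 0.0374, edgeR). With 1 library left out it ranged from 1.15 to 1.44 and never passed (adjusted p from 0.0544 to 0.149, edgeR). C3 lies at chr17:57203970-57228136 on the minus strand and shares none of its 50-base words with other annotated transcripts. The genes with profiles nearest to C3 over the 6 libraries were Mmp27 (distance 0.15), Tfrc (0.18), Megf9 (0.18), Layn (0.20) and Clec4n (0.21). Mmp27 encodes a matrix metalloproteinase, Tfrc the transferrin receptor and Clec4n the lectin dectin-2. C1qa was the nearest of the C1q chains at rank 912 (0.58).

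Of the 9 genes, 2 passed the adjusted threshold in edgeR, C3 and C1ra, both higher on hHVS, and 3 had groups that did not overlap, those 2 and C5ar1. Over all 16364 genes tested, 92 were higher (0.562%) and 49 lower (0.299%), 0.862% together. Groups did not overlap in 20.6% of genes, 10.7% higher and 9.89% lower on hHVS. DESeq2 called 3 of the 9 and 3.84% of all genes it tested, and limma-voom 2 of the 9 and 0.776%. With library totals the split over all genes was 71 higher and 74 lower, and the 2 members called were then C3 and C5ar1, in opposite directions. The median log2 fold change was 0.030 over the 9 genes and -0.014 over all genes tested. Without PCL replicate 3 and hHVS replicate 2, a setting chosen after the data were seen, C3 was at 1.14 (adjusted p = 0.142, edgeR) and C1ra at 1.03 (adjusted p = 0.152, edgeR). The plot of CPM by library shows C3 and C1ra separated upward on hHVS, C5ar1 separated downward, and the other 6 genes overlapping.

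**Figure D3:**
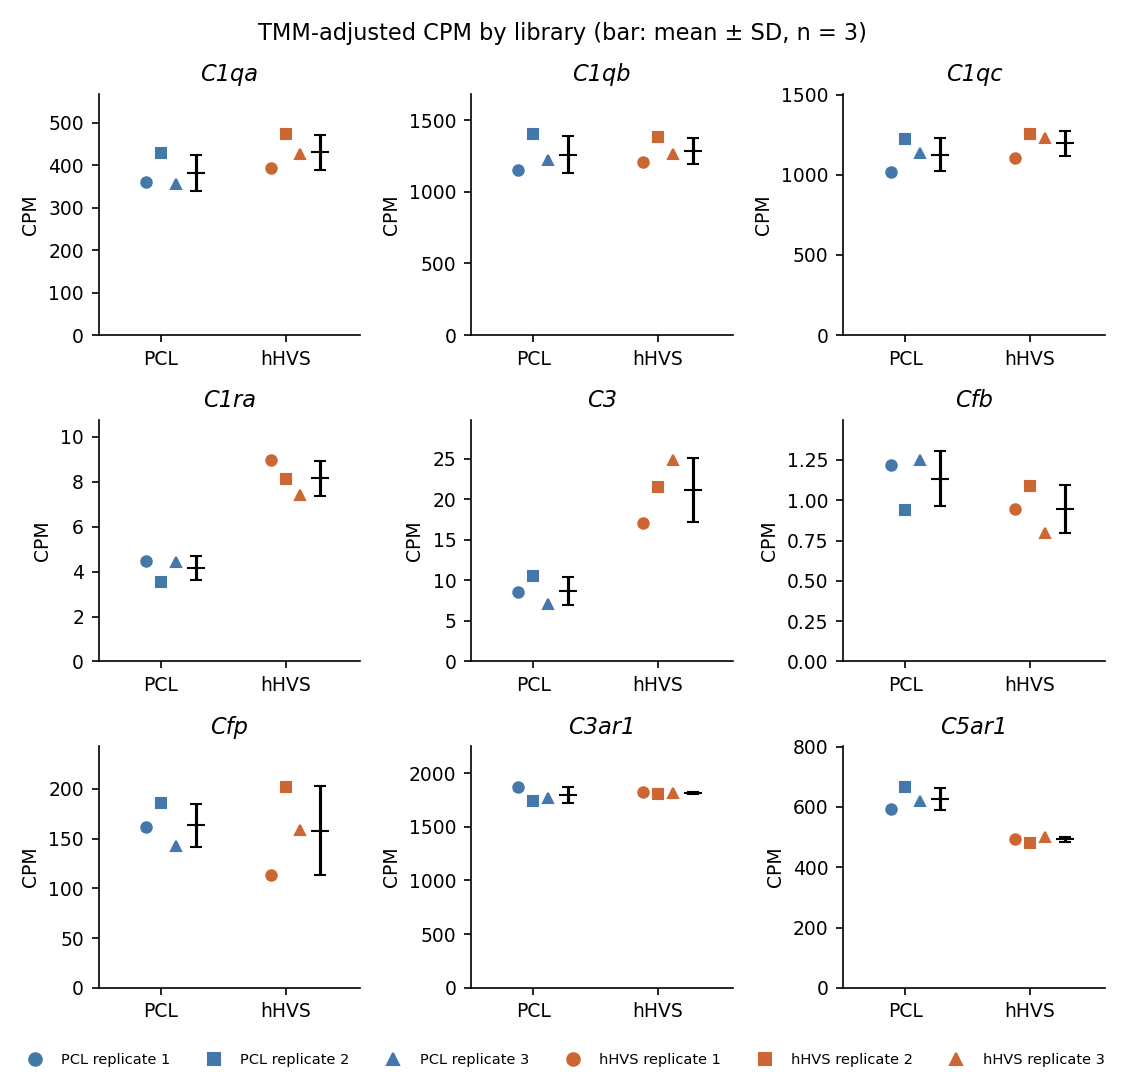
TMM-adjusted CPM of each complement gene in each library (blue, PCL; orange, hHVS; circles, squares and triangles are replicates 1, 2 and 3), with the group mean ± SD (n = 3) as a black bar; every axis starts at 0. C3 and C1ra are higher and C5ar1 lower in all hHVS libraries, and C3ar1 in the 3 hHVS libraries lies between 1808 and 1820 CPM.

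Promoter windows of C3 and C1ra, the genes with the largest differences, and of C5ar1 are printed for comparison, with capitals as above. They lie at chr17:57228087-57228386 (C3, minus strand), chr6:124512371-124512670 (C1ra, plus strand) and chr7:16259289-16259588 (C5ar1, minus strand). The RefSeq starts of C1ra and C5ar1 lie within the genes as annotated in GENCODE M21. Most of each of these windows is therefore inside the annotated gene. Offsets below are from the RefSeq start.
C3: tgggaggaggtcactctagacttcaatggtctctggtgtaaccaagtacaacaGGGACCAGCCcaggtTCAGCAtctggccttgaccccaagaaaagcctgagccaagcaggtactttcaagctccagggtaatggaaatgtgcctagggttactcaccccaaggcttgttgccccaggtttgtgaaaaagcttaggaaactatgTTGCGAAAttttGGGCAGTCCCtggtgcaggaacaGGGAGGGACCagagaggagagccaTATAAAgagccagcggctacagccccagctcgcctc
C1ra: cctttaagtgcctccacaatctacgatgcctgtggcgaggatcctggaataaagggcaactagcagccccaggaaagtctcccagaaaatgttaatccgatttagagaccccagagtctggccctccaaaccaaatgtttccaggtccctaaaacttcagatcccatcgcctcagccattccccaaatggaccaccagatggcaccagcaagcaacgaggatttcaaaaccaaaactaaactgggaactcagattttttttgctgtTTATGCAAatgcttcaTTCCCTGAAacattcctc
C5ar1: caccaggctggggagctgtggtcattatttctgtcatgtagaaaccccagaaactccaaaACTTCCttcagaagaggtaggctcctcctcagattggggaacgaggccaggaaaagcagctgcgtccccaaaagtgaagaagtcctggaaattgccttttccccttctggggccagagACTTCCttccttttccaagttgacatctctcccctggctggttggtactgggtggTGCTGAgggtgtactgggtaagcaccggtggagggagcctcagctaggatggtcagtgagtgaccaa
C3 and C1ra were the 2 of 7 windows with the C/EBP-like motif, TTGCGAAA at -45 to -38 in C3 and TTATGCAA at 17 to 24 in C1ra. That motif occurs in 10.8% of all windows. C3 also had TATAAA at 15 to 20, which 13.6% of all windows hold, and 3 matches to the NF-kB-like motif. C1ra had the only STAT-like match of the 7 windows (8.30% of all windows), and C5ar1 had 2 matches to the ETS motif. The IRF-like motif was in none of the 7 windows, with these letters, and in 3.44% of all windows. The motifs were chosen with the differences known, so their presence in C3 and C1ra is a description.

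The alternative pathway factors did not separate the groups. Cfp, which encodes properdin, was at 162, 186 and 142 CPM in PCL replicates 1, 2 and 3 and at 113, 202 and 159 CPM in hHVS replicates 1, 2 and 3. It spread most among the hHVS libraries, 1.79-fold from lowest to highest, and its log2 fold change was -0.046 ± 0.20 (SE; adjusted p = 0.948, edgeR). Its sign depended on single libraries: it was 0.14 without hHVS replicate 1 and -0.26 without hHVS replicate 2. As for the C1q chains, replicate 2 was highest in both groups and replicate 1 lowest on hHVS, though replicate numbers are not taken as pairs. Cfp lies at chrX:20925454-20931555.

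Cfb, the gene of factor B, was the lowest of the 9. It was at 1.22, 0.938 and 1.25 CPM on PCL and at 0.945, 1.09 and 0.797 CPM on hHVS, from 61 to 97 units in a library. The log2 fold change was -0.26 ± 0.27 (SE; adjusted p = 0.729, edgeR). Cfb (chr17:34856374-34862518) shares 79.5% of its exon bases with Gm20547 on the same strand. Reads on the shared bases may be divided between these genes or left out of both, which is not given. The sum of Cfb and Gm20547 was 1.18 ± 0.161 CPM on PCL and 1.08 ± 0.215 CPM on hHVS (SD, n = 3). Reads left out of both would not be in this sum, so the level of Cfb may be too low.

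The receptors differed from each other. C3ar1, the C3a receptor gene, was at 1874, 1740 and 1772 CPM in PCL replicates 1, 2 and 3 and at 1820, 1808 and 1815 CPM in hHVS replicates 1, 2 and 3. It varied least of the 9 genes, with a coefficient of variation of 2.53% over the 6 libraries against 49.1% for C3, and its log2 fold change was 0.015 ± 0.062 (SE; adjusted p = 0.944, edgeR). With library totals the sign turned (-0.066). C5ar1, the receptor gene for the chemoattractant C5a, was at 593, 668 and 619 CPM on PCL and at 494, 482 and 501 CPM on hHVS. Every hHVS library was below every PCL library. The log2 fold change of C5ar1 was -0.35 ± 0.069 (SE), or 1.27-fold higher on PCL, which missed the threshold in edgeR (adjusted p = 0.0844). It passed in DESeq2 (adjusted p = 0.00741) and with library totals (adjusted p = 0.036, edgeR), where the median over all genes tested was -0.094. With 1 library left out C5ar1 ranged from -0.39 to -0.30 and never passed (adjusted p from 0.0843 to 0.303, edgeR). It also missed with the replicate block (adjusted p = 0.242, edgeR).

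Within a library the FPKM ratio of C3ar1 to C5ar1 was 1.89, 1.56 and 1.71 in PCL replicates 1, 2 and 3 and 2.20, 2.24 and 2.16 in hHVS replicates 1, 2 and 3. The ratios of the groups did not overlap. C3ar1 is at chr6:122847138-122856161 and C5ar1 at chr7:16246743-16259540, next to C5ar2, the gene of the second C5a receptor, at a distance of 2588 bases. C5ar2, named after its values were seen, was at 4.12, 0.179 and 0.129 CPM on PCL and at 6.09, 5.03 and 0.0653 CPM on hHVS. It was thus high in 3 libraries of both groups and near the limit of 3 fragments in the other 3 (log2 fold change 1.33 ± 1.51 SE, adjusted p = 0.755, edgeR).

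By role, the C1q chains held 71.7 to 76.5% of the summed FPKM of the 9 genes in each library, and the receptors 19.5 to 24.7%. The alternative pathway factors, almost all Cfp, held 2.38 to 3.76%. C3 held 0.0588 ± 0.00865% on PCL and 0.14 ± 0.0226% on hHVS, and C1ra 0.0489 ± 0.00953% and 0.094 ± 0.0135% (SD, n = 3). The balance of recognition subunit to central component moved accordingly: C1qb exceeded C3 638, 630.4 and 818-fold in PCL replicates 1, 2 and 3 and 333, 303 and 241-fold in hHVS replicates 1, 2 and 3. The C3a receptor gene exceeded C3 253 ± 52.0-fold on PCL and 105 ± 20.4-fold on hHVS (SD, n = 3). These ratios come from the contrast by which the genes were listed and were not tested.

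The rest of the complement system was read from lists of 54 other genes (55 records). Of these, 16 records had no counts in any library, 10 had too few to be tested, and 29 were tested. The count filter was applied to units, and with units divided by 4 only 20 were tested. In edgeR 2 of the 29 were higher on hHVS and 0 lower, against 0.862% of all genes tested called in either direction. An unadjusted p under 0.05 was found for 7 of the 29, against 13.1% of all genes, and DESeq2 called 4. The median log2 fold change of the 29 was 0.084. The plot of fold changes shows the spread by role.

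**Figure D4:**
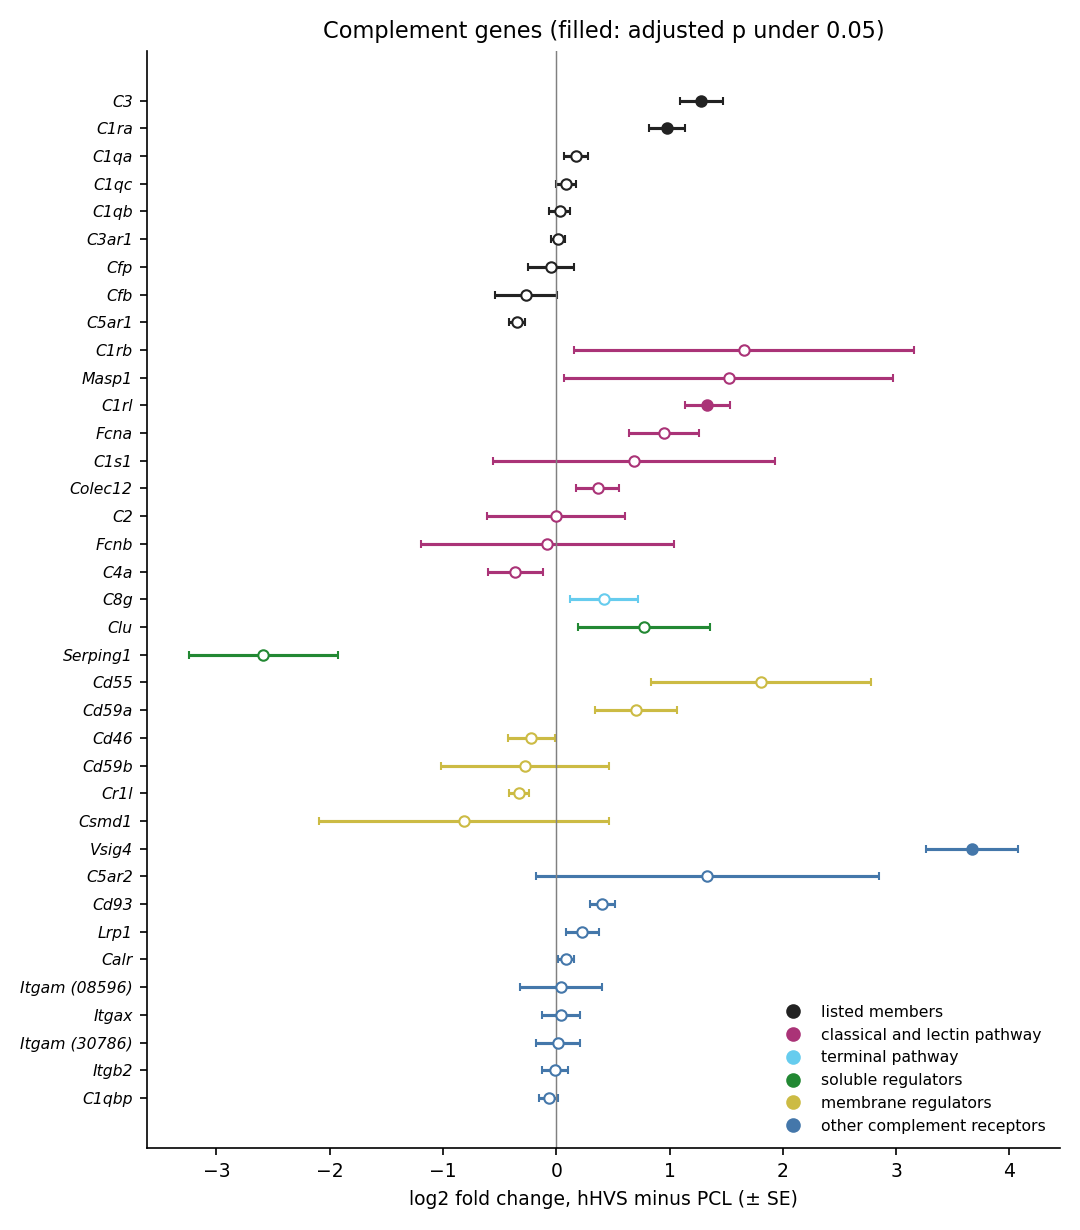
Log2 fold change (hHVS minus PCL) with its SE for the 9 listed complement genes (black) and other complement genes tested, coloured by role; filled points passed the adjusted threshold in edgeR. C3, C1ra, C1rl and Vsig4 are filled, all to the right of 0, and several low genes such as C1rb, Masp1 and C5ar2 have an SE above 1.

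Among classical and lectin pathway genes, 9 of 16 were tested, 1 was higher and 0 lower. C1rl, a gene for a C1r-like protease, rose from 1.79, 1.34 and 1.52 CPM in PCL replicates 1, 2 and 3 to 3.39, 4.31 and 4.04 CPM in hHVS replicates 1, 2 and 3. Its log2 fold change was 1.33 ± 0.20 (SE; adjusted p = 0.0374, edgeR), and it did not pass with any of the 6 libraries left out (adjusted p from 0.0707 to 0.167). C1rl (chr6:124493113-124510643) lies 1761 bases before C1ra on the same strand. C1s1, the gene of the partner protease C1s, lies 6901 bases beyond C1ra and averaged 0.308 ± 0.293 CPM on hHVS against 0.190 ± 0.152 on PCL (adjusted p = 0.85, edgeR). Colec12, a scavenger collectin gene, was the most abundant of the list at 79.7 ± 19.1 and 61.9 ± 9.89 CPM (adjusted p = 0.467, edgeR), and the ficolin gene Fcna, next by mean FPKM but below C1rl in CPM, was at 2.59 ± 0.759 and 1.34 ± 0.333 CPM (adjusted p = 0.25, edgeR). Here and below the first of paired values is hHVS.

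Downstream of C3 little was measured. Of the 7 terminal pathway genes, Hc, C7, C8a and C8b had no counts in any library, C6 and C9 were too low to be tested, and C8g was at 1.49 ± 0.477 and 1.11 ± 0.133 CPM (adjusted p = 0.599, edgeR). Cfd, which encodes the alternative pathway protease factor D, also had 0 units in all 6 libraries. A count of 0 allows up to 0.0262 CPM over the 6 libraries.

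Of the soluble regulators 3 of 10 were tested and 0 passed (2 at an unadjusted p under 0.05, and DESeq2 called Serping1). Serping1, the C1 inhibitor gene, was at 0.0857 ± 0.0263 and 0.525 ± 0.370 CPM (adjusted p = 0.158, edgeR), its hHVS values lying under the limit of 3 fragments. Clu, the clusterin gene, was at 0.327 ± 0.180 and 0.191 ± 0.0535 CPM (adjusted p = 0.621, edgeR). Of the membrane regulators 6 of 10 were tested and 0 passed in edgeR (1 at an unadjusted p under 0.05) or in DESeq2. The most abundant was Cr1l, the gene of the rodent C3 convertase regulator Crry, at 64.9 ± 1.70 and 81.4 ± 7.81 CPM (log2 fold change -0.33 ± 0.09 SE, adjusted p = 0.171, edgeR). Cd59a was at 4.49 ± 2.29 and 2.75 ± 0.307 CPM and Cd46 at 1.44 ± 0.0943 and 1.67 ± 0.0601 CPM.

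Among the other receptors and binding proteins, 10 of 11 records were tested, 1 was higher and 0 lower. Vsig4, a receptor of resident macrophages for C3 fragments, was at 0.105, 0.11 and 0.206 CPM in PCL replicates 1, 2 and 3 and at 2.25, 1.86 and 1.32 CPM in hHVS replicates 1, 2 and 3 (adjusted p = 0.013, edgeR). PCL values were around the limit of 3 fragments, and the call was lost without PCL replicate 1, PCL replicate 2 or hHVS replicate 1 (adjusted p up to 0.0684, edgeR). The integrin chain gene Itgb2, part of complement receptors for cleaved C3, was at 1325 ± 29.7 and 1336 ± 221 CPM (adjusted p = 0.976, edgeR). Calr was at 982 ± 59.5 and 926 ± 32.6 CPM and Lrp1 at 4522 ± 239 and 3858 ± 804 CPM, and neither passed.

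Genes of factors and cytokines known to act on complement gene expression were mostly level. Of 26 such genes 24 were tested, 1 was higher and 0 lower, and their median log2 fold change was -0.014. Rxra, the gene of a nuclear receptor partner, rose from 156 ± 14.7 to 235 ± 13.9 CPM (log2 fold change 0.59 ± 0.09 SE, adjusted p = 0.0408, edgeR), and it did not pass with any of the 6 libraries left out (adjusted p from 0.0518 to 0.182). Cebpa was at 451 ± 66.3 and 501 ± 152 CPM. Ifng had no counts and Il6 was too low to be tested.

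Markers of other cells that make complement were measured beside C3 and C1ra. Fibroblasts and other stromal cells also make C3 and C1r, and the 15 stromal markers summed to between 26.3 and 139 CPM on hHVS and between 81.8 and 296 CPM on PCL. All 13 stromal markers tested had a negative log2 fold change (median -0.96), with 0 past the threshold and 3 at an unadjusted p under 0.05. Over all genes tested 47.8% had a positive log2 fold change and 13.1% an unadjusted p under 0.05. Acta2 was at 8.63 ± 6.44 and 12.1 ± 12.1 CPM and Col1a1 at 14.1 ± 9.46 and 30.4 ± 30.0 CPM, and no stromal marker was at 0 in all libraries. The 13 markers of neutrophils and their precursors, cells that also carry C5ar1, summed to between 129 and 140.3 CPM on hHVS and between 115 and 119 CPM on PCL, most of it Csf3r (116 ± 4.98 and 99.3 ± 3.12 CPM), with S100a9 at 3.64 ± 0.495 and 3.24 ± 0.704 CPM. Of the 11 tested, 0 passed, 7 had a positive log2 fold change, and only Csf3r had an unadjusted p under 0.05. S100a8 went the other way, at 3.26 ± 0.415 and 3.69 ± 0.673 CPM, and Ly6g and Ctsg were too low to be tested. The neutrophil sum therefore mainly gives Csf3r. The part of either cell type in the differences was not tested.

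Of the 9 macrophage markers tested of 10, 0 passed in edgeR and 6 had an unadjusted p under 0.05, against 13.1% of all genes tested. Lyz2 was at 13293 ± 685 and 9678 ± 1133 CPM (adjusted p = 0.105, edgeR). Summed, the 10 markers were at 19204 to 20383 CPM on hHVS and 14496 to 16863 CPM on PCL, without overlap. Most of this sum was Lyz2, and the other 9 summed to 6547 to 6755 CPM on hHVS and 6126 to 6552 CPM on PCL, with overlap. The list did not move one way: of the 9 tested, 6 had a positive log2 fold change. Among these, Mertk averaged 265 CPM on hHVS against 199 CPM on PCL. Mrc1 averaged 606 against 353 CPM, and Adgre1 1329 against 1160 CPM. These genes, named after their values were seen, had groups without overlap and did not pass (adjusted p = 0.11, 0.222 and 0.223, edgeR). Cd14, named after its values were seen, was at 86.7 ± 7.91 CPM on hHVS against 175 ± 53.9 CPM on PCL, without overlap, and Csf1r averaged 2063 against 2164 CPM and Fcgr1 86.5 against 93.5 CPM. Cd163 was at 1.16 ± 0.222 CPM on hHVS against 0.229 ± 0.154 CPM on PCL, without overlap (log2 fold change 2.34 ± 0.52 SE, adjusted p = 0.115, edgeR). It was at most 1.36 CPM in any library, and its lowest PCL values were near the limit of 3 fragments. Timd4 was too low to be tested. The part of these cells in the differences of C3 and C1ra was not tested. The dendritic cell list (7 markers, 4 tested, 0 called) summed to 78.3 to 87.5 CPM on hHVS and 48.5 to 65.6 CPM on PCL, almost all of it Bst2, which other cells express, with Clec9a at 1.75 ± 0.309 and 1.38 ± 0.242 CPM. Lymphocyte markers (9, 2 tested, 0 called) summed to 6.20 to 7.65 CPM on hHVS and 1.96 to 4.34 CPM on PCL. Most of this was Cd4, at 6.23 ± 0.729 and 3.00 ± 1.37 CPM, and Cd79a was at 0.267 ± 0.0745 and 0.173 ± 0.0588 CPM. The other 7, with Cd3e, Cd3d and Cd8a among them, were too low to be tested, so the sum mainly gives Cd4. Endothelial markers (5, 3 tested, 0 called) summed to 8.47 to 8.93 and 11.1 to 13.2 CPM. Most of this was Kdr, at 6.82 ± 0.212 and 9.07 ± 0.518 CPM, so this sum mainly gives Kdr. Mast and basophil markers (5, 1 tested, 0 called) stayed under 0.759 CPM in every library, and all 5 adipocyte markers had no counts.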

How the data were processed

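The authors deposited raw counts per gene (whole numbers, treated here as estimated counts) and FPKM values per gene for 51912 Ensembl records in 6 libraries. FastQC, STAR, featureCounts and MultiQC are named, with the mm10 build, in the authors' notes (per the submitters' processing notes). Their versions, the tool behind each table and the use of strand are not given in the sources used. Per the labels' protocols, poly(A) RNA was made into stranded libraries. The value 4 filled 6544 cells of the count table, against 2701 with 3 and 1483 with 5, so 1 fragment was taken as about 4 units.

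Counts were used as deposited. Genes passing filterByExpr (minimum count 10; 16364 of 26793 with any count) were scaled by TMM and tested, hHVS against PCL, with edgeR 4.0.16 in R 4.3.3 (quasi-likelihood F test), two-sided, with Benjamini-Hochberg adjustment over all genes tested and a threshold of 0.05. SE is the log2 fold change divided by the root of F. Library levels between genes used deposited FPKM with a pseudocount of 0.1 and an exact sign-flip test. No pair of libraries of a group agreed within counting error (chi-square per gene of at least 11.7 on units divided by 4), so none was counted as a duplicate; this does not show separate cultures. Alternatives were DESeq2 1.42.0, limma 3.58.1 (voom, and trend on log2 FPKM), other scalings, no filter, units divided by 4, a replicate block and libraries left out. The edgeR fit was tested on simulated counts with 200 genes changed. It recovered 14 of 67 genes changed 1.5-fold, 31 of 67 changed 2-fold and 46 of 66 changed 4-fold. False calls were 5 among 16164 unchanged genes. A gene that did not pass may therefore still differ. Coordinates and lengths came from GENCODE M21 on GRCm38, the assembly of mm10 (99.6% of records matched), and promoter sequences from RefSeq.

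The members and gene lists were chosen with earlier results of these data known. Named genes are the 9 members, other complement genes past the threshold, the 3 most abundant of each complement list, up to 5 called and the 2 most abundant genes of each other list, and the 5 nearest profiles of C3 and of each C1q chain; exceptions are stated, and a few genes under this rule are not reported here.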

Additional observations from a re-analysis of the deposited data

How the results depend on the processing

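Over all genes 141 passed, and 76 without the low-count filter, 667 with DESeq2, 84 with limma on log2(FPKM + 0.1), 66 without PCL replicate 3 and hHVS replicate 2 (chosen after seeing the data, as was the rescaling below), and 32 to 154 with 1 library left out. Of the 9 members 2 passed, and 0 passed without the filter, with limma on log2(FPKM + 0.1) or log2(FPKM + 1), without PCL replicate 3 and hHVS replicate 2, or with any 1 library left out (0 to 0); DESeq2 called 3 and limma-voom 2. Of the other complement genes 2 passed, 1 (Vsig4) without the filter and in both FPKM fits, 4 with DESeq2, 0 without PCL replicate 3 and hHVS replicate 2, and 0 to 1 with 1 library left out. Dividing units by 4 left 13535 genes tested, of which 165 passed. Among them were 2 members (C3 and C1ra) and 2 of 20 other complement genes tested (C1rl and Vsig4). With the replicate block 36 genes passed over all, 0 members and 0 other complement genes; same-numbered libraries did not deviate together (correlations 0.12, -0.0095 and -0.061), and not every library correlated best with its own number, so the numbers are not taken as pairs. C3 and C1ra were positive under all alternatives run. The sign turned for C1qb with library totals (-0.048), log2(FPKM + 0.1) (-0.039), log2(FPKM + 1) (-0.039), without PCL replicate 1 (-0.031), without hHVS replicate 2 (-0.025) and without PCL replicate 3 and hHVS replicate 2 (-0.045). It turned for C3ar1 with library totals (-0.066), both FPKM fits (-0.056 and -0.056) and without PCL replicate 2 (-0.0067). For Cfp it turned without PCL replicate 2 (0.058) or hHVS replicate 1 (0.14). Over all genes tested the median log2 fold change was -0.094 with library totals against -0.014 with TMM factors. The cause of these turns of sign was not tested. With libraries left out the ranges were -0.045 to 0.12 for C1qb, -0.35 to 0.14 for Cfp and -0.0067 to 0.047 for C3ar1. Of the neighbour pairs 6 passed, and 0 (0 to 0) with 1 library left out, since 5 libraries cannot give a p below 0.0625. Rescaled to coding transcripts, log2 C1qc over C1qa was 1.31 in place of 0.62, the C1q share 77.2% in place of 74.6% and the receptor share 19.6% in place of 22.1%. Depth limits genes near the limit of 3 fragments, such as C1s1 and Serping1.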
